A study of Danio rerio with 4 samples.

Results

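The enzymes that build nucleotides, and the folate and serine steps that feed them, were followed in livers of fasting zebrafish larvae treated with lipofermata or with its solvent. In total 37 genes were chosen by name, for their place in the pathways. They belong to purine synthesis (12 genes), pyrimidine synthesis (5), deoxynucleotide supply (9), folate metabolism (8) and serine synthesis (3). No rule on their values was applied, but earlier results of these data were known when they were chosen. All 37 were found among the 32058 rows of the count table. Of these, 36 had enough counts to be tested, out of 14925 genes tested in all.

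Larvae whose genotype the labels give as AB were kept without food. From 4 dpf, for 48 h, they received either 5 μM lipofermata, an inhibitor of the fatty acid transporter FATP2, or DMSO as vehicle. At 6 dpf the livers were dissected, and each of the 2 replicates per group pooled the livers of 30 larvae. The mRNA was sequenced from stranded libraries, which held 14997821 to 19368695 counts. The labels name no transgene, but all 4 libraries held counts of an EGFP row, at 711 and 818 CPM (counts scaled to library size) with vehicle and at 322 and 495 CPM with lipofermata. No source states that the replicates came from separate clutches, so the p-values measure only the spread between these pools.

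A cell makes purines on a ribose phosphate scaffold, ending at inosine monophosphate, from which AMP and GMP are made. Pyrimidines are made as a free ring that is then joined to ribose phosphate, ending at UMP and CTP. Ribonucleotide reductase turns ribonucleotides into deoxynucleotides, and thymidylate synthase makes the base that is particular to DNA. Folate carries the carbon units used in purine and thymidylate synthesis, serine is a main donor of these units, and the liver also uses folate to burn excess carbon units to carbon dioxide. The roles given here for single genes are those known from their mammalian counterparts. In mammals, genes of deoxynucleotide supply are known as targets of E2F factors in S phase, and genes of serine synthesis and of mitochondrial folate metabolism as targets of ATF4.

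Values are CPM after scaling with the trimmed mean of M-values (TMM), a factor that assumes that most genes do not change. They are not divided by gene length, so they compare libraries and not genes. The livers were dominated by hepatocyte transcripts, with fabp10a, a fatty acid binding protein of hepatocytes, at 8320 and 10003 CPM with vehicle and at 7300.2 and 8152 CPM with lipofermata. Markers of the pancreas, exocrine and endocrine, summed to 4020 to 10428 CPM and varied more within the groups than between them. In bulk tissue, fewer cells of a type and less RNA per cell cannot be told apart.

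With lipofermata, 19 of the 36 tested genes rose, 5 fell and 12 stayed short of the threshold (quasi-likelihood test of edgeR, adjusted p below 0.1, n = 2 pools per group). Of all genes tested, 16.6% rose and 16.9% fell. The median log2 fold change was 0.57 over the 36 genes and -0.03 over all genes. By at least 2-fold, 10 rose and 1 fell, against 6.69% and 8.62% of all genes. Both lipofermata libraries lay above both vehicle libraries for 22 genes, and below them for 8, against 32.2% and 32.9% of all genes. All but 1 of the tested genes would have passed the filter on low counts in either group alone. The exception was mthfd1l, which passed through the lipofermata libraries only and is therefore weak evidence of a rise. Over the 35 genes past the filter in both groups, 18 rose and 5 fell, with a median of 0.52. Of these, 9 rose by at least 2-fold, and 21 lay above vehicle with no overlap.

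**Figure D1:**
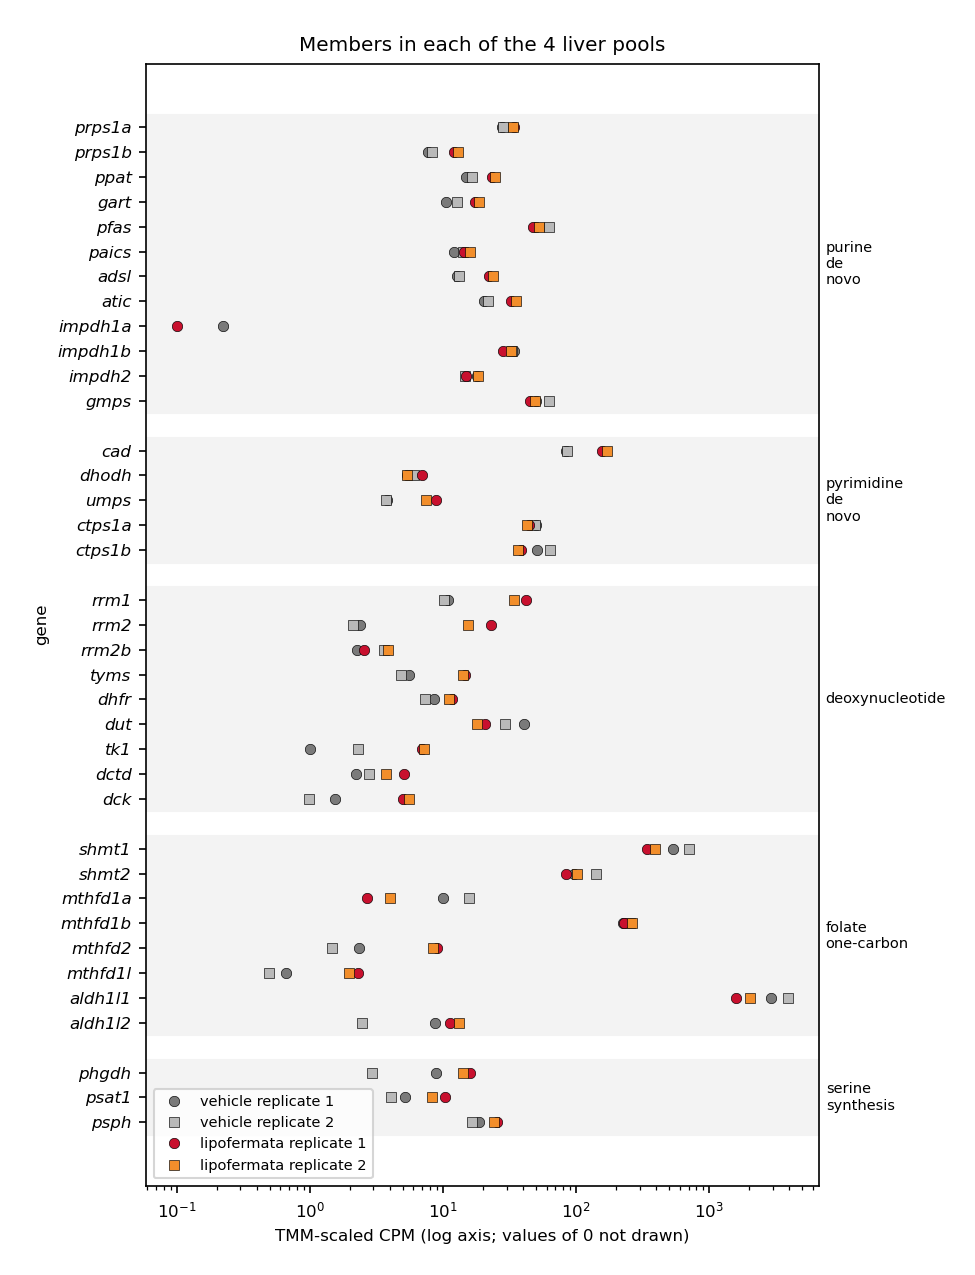
TMM-scaled CPM (log axis) of the 37 genes in each of the 4 liver pools, ordered by role and pathway step (circles, replicate 1; squares, replicate 2; grey, vehicle; red and orange, lipofermata). For rrm1 the lipofermata pools sit at 42.3 and 34.0 CPM and the vehicle pools at 10.9 and 10.1 CPM, whereas for aldh1l1 the vehicle pools sit higher.

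The rises were not shared by all steps. Deoxynucleotide genes had a median log2 fold change of 1.46 and serine synthesis genes of 0.99, against 0.28 for purine synthesis, 0.12 for pyrimidine synthesis and -0.16 for folate metabolism. Folate metabolism held rises and falls in equal number. Although more genes rose than fell, the summed level of all 37 genes was lower with lipofermata, at 3004 and 3543 CPM against 4358 and 5648 CPM. Without the abundant folate gene aldh1l1 the sums overlapped, at 1409.8 and 1522 CPM with lipofermata and 1434 and 1708 CPM with vehicle. The sums were taken with TMM only, whose factors were 0.93 and 0.82 with vehicle and 1.16 and 1.13 with lipofermata. Scaling by total counts would raise the lipofermata values against the vehicle values, so the overlap need not hold there.

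**Figure D2:**
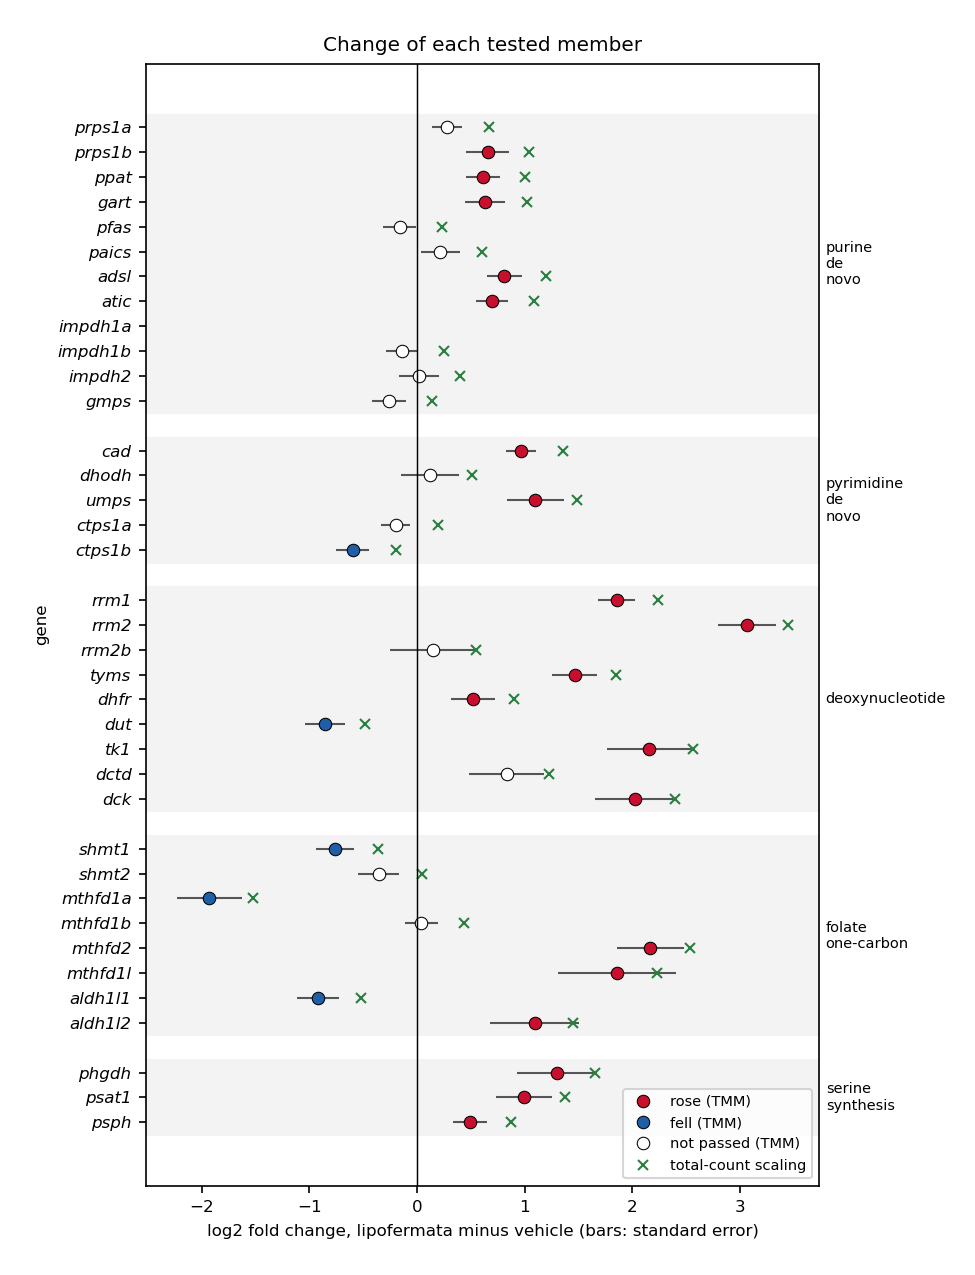
Log2 fold change of each tested gene, lipofermata minus vehicle, with its standard error (circles: red, rose; blue, fell; white, did not pass) and the same value after scaling by total counts alone (crosses). The crosses lie to the right of the circles by about 0.39, the shift of the median of all genes, and impdh1a was not tested.

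Deoxynucleotide supply held the largest single rise, in rrm2, and most of its genes rose. Among its 9 genes, 6 rose, 1 fell and 2 did not pass, while 16.6% of all genes tested rose and 16.9% fell. Ribonucleotide reductase, the enzyme that makes deoxynucleotides from ribonucleotides, has a large subunit encoded by rrm1 and a small subunit encoded by rrm2. The gene rrm2 (ENSDARG00000020711) stood at 2.38 and 2.12 CPM with vehicle and at 22.8 and 15.3 CPM with lipofermata, from 43, 26, 456 and 279 counts. The groups were far apart, and the higher lipofermata library was replicate 1. The log2 fold change was 3.07 (standard error 0.27, edgeR adjusted p = 8.2e-05). For rrm1 (ENSDARG00000014017), the vehicle pools had 10.9 and 10.1 CPM and the lipofermata pools 42.3 and 34.0 CPM. The log2 fold change was 1.85 (standard error 0.17, edgeR adjusted p = 9.8e-05). As rrm2 rose more than rrm1, the ratio of rrm1 to rrm2 counts was 4.58 and 4.77 with vehicle and 1.86 and 2.23 with lipofermata. In this ratio rrm2 was counted from ENSDARG00000020711 alone.

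A further row of the table carries the name rrm2 (ENSDARG00000078069) and was left out by the rule of the most counts. It rose as well, from 35 and 34 counts to 159 and 159 counts (log2 fold change 1.84, edgeR adjusted p = 0.0020). With both rows summed, the log2 fold change of rrm2 was 2.57. The other small subunit gene, rrm2b, which in mammals is induced by p53 and serves resting cells, had 2.27 and 3.59 CPM with vehicle and 2.55 and 3.89 CPM with lipofermata. Its groups overlapped, with a log2 fold change of 0.15 (standard error 0.40, edgeR adjusted p = 0.82). The counts of rrm2 were 1.05 and 0.591 times those of rrm2b with vehicle, and 8.94 and 3.93 times with lipofermata. These ratios leave out the further row named rrm2, which would raise them in every library.

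Thymidylate synthase, encoded by tyms, methylates dUMP to dTMP. It stood at 5.54 and 4.82 CPM with vehicle and at 14.6 and 14.1 CPM with lipofermata, a log2 fold change of 1.46 (standard error 0.21, edgeR adjusted p = 0.0010). The salvage kinases rose by larger factors from low levels. The thymidine kinase gene tk1 had 0.998 and 2.29 CPM with vehicle, from 18 and 28 counts, and 6.996 and 7.18 CPM with lipofermata. Its log2 fold change of 2.16 (standard error 0.39, edgeR adjusted p = 0.0033) became 1.64 when vehicle replicate 1 was left out and 2.82 when vehicle replicate 2 was. The deoxycytidine kinase gene dck had 1.55 and 0.98 CPM with vehicle and 5.00 and 5.59 CPM with lipofermata, and rose by 2.03 on the log2 scale. In the RefSeq annotation of the assembly GRCz12tu, dck overlaps the bicarbonate transporter gene slc4a4b, which rose by 0.92, and the strand setting of the counting is not given in the sources used here.

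Among other genes that serve thymidylate synthesis, dhfr and dctd moved less than tyms, tk1 and dck. Dihydrofolate reductase, encoded by dhfr, regenerates the folate that thymidylate synthase oxidizes. The gene rose by 0.52 (edgeR adjusted p = 0.095), close to the threshold. The call was lost when vehicle replicate 2 (0.42) or either lipofermata replicate was left out (0.48 and 0.56), with DESeq2, with the upper quartile, with no filter or at a threshold of 0.05. The dCMP deaminase gene dctd, which supplies dUMP, had 2.22 and 2.78 CPM with vehicle and 5.10 and 3.72 CPM with lipofermata and did not pass (log2 fold change 0.83, edgeR adjusted p = 0.11), although it did without vehicle replicate 2 (0.99), with total-count scaling (1.22) and with no filter (0.85). The gene dut, whose product removes dUTP and so keeps uracil out of DNA, went the other way. It had 40.9 and 29.2 CPM with vehicle and 20.8 and 18.02 CPM with lipofermata (log2 fold change -0.86, standard error 0.18, edgeR adjusted p = 0.0077). With total-count scaling the value was -0.48 and did not pass (edgeR adjusted p = 0.14).

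The deoxynucleotide genes moved beside a list of E2F factors and DNA replication genes, none of which belongs to the 37. The list was also chosen with earlier results of these data known, so it is no independent comparison. Of all genes tested, 16.6% rose and 16.9% fell. The values of the E2F and replication list follow. Of its 43 tested genes, 30 rose and 13 did not pass, with a median of 0.95, and its summed level was 323 and 362 CPM with vehicle and 642 and 768 CPM with lipofermata. Without lipofermata replicate 1, 15 of these genes rose. Among them, with all libraries, the topoisomerase top2a rose by 3.24, the E2F family repressor e2f8 by 3.10 and the sliding clamp pcna by 1.43. The part of this list in the values of the deoxynucleotide genes was not tested.

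In purine synthesis, 5 of 11 tested genes rose and 6 did not pass, while 16.6% of all genes tested rose and 16.9% fell. None of the purine genes fell, with 0 also at an unadjusted p under 0.05 in edgeR, and 0 with DESeq2 and limma voom. The rises were between 0.61 and 0.81 on the log2 scale, below those of the deoxynucleotide genes other than dhfr. They were in prps1b, ppat, gart, adsl and atic. The pathway starts from phosphoribosyl pyrophosphate, made by synthetases encoded by prps1a and prps1b. The gene prps1b rose by 0.66, from 7.65 and 8.33 CPM to 12.1 and 13.04 CPM (edgeR adjusted p = 0.037). Its paralog prps1a had 27.8 and 28.1 CPM with vehicle and 34.2 and 33.6 CPM with lipofermata, so that the groups did not overlap, but it did not pass (log2 fold change 0.28, edgeR adjusted p = 0.17).

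The amidotransferase encoded by ppat commits phosphoribosyl pyrophosphate to purines. It had 14.97 and 16.5 CPM with vehicle and 23.5 and 24.5 CPM with lipofermata (log2 fold change 0.61, standard error 0.16, edgeR adjusted p = 0.018). The next enzyme, encoded by gart, carries out several steps and uses formyl folate. It rose by 0.63, from 10.5 and 12.8 CPM to 17.4 and 18.6 CPM. Without lipofermata replicate 1 or 2, prps1b (0.71 and 0.60), ppat (0.64 and 0.58) and gart (0.68 and 0.58) did not pass. The genes pfas and paics, for other steps before adsl, did not pass. The gene pfas, an amidotransferase, had a log2 fold change of -0.16 and paics, a carboxylase and synthetase in a single protein, of 0.22 (edgeR adjusted p = 0.48 and 0.42). In GRCz12tu the spans of ppat and paics overlap, and ppat rose by 0.61.

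The last steps, adsl and atic, had the largest log2 fold changes within this branch, with standard errors that overlapped those of the other rises. Without vehicle replicate 2, gart (0.77) lay above atic (0.75), and no test compared the steps. Adenylosuccinate lyase, encoded by adsl, acts both on the way to inosine monophosphate and from there to AMP. It had 12.8 and 13.2 CPM with vehicle and 22.0 and 23.6 CPM with lipofermata, a log2 fold change of 0.81 (standard error 0.16, edgeR adjusted p = 0.0057). The gene atic, whose product closes the purine ring with a second formyl folate, had 20.2 and 21.9 CPM with vehicle and 32.6 and 35.3 CPM with lipofermata. Its log2 fold change was 0.69 (standard error 0.15, edgeR adjusted p = 0.0074). In GRCz12tu atic overlaps the fibronectin gene fn1b, which changed in the opposite direction, by -0.99.

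The branch from inosine monophosphate to GMP did not follow. IMP dehydrogenase, its rate-limiting enzyme, is encoded by impdh1a, impdh1b and impdh2. The counts of impdh1a were 4 and 0 with vehicle and 2 and 0 with lipofermata, too few to test. The gene impdh1b had 34.2 and 32.8 CPM with vehicle and 28.3 and 32.5 CPM with lipofermata, and impdh2 had 17.9 and 14.7 CPM with vehicle and 14.8 and 18.3 CPM with lipofermata. Their log2 fold changes were -0.14 and 0.02 and neither passed (edgeR adjusted p = 0.52 and 0.96). GMP synthetase, encoded by gmps, had 49.6 and 62.6 CPM with vehicle and 44.7 and 48.8 CPM with lipofermata (log2 fold change -0.26, edgeR adjusted p = 0.25). Without vehicle replicate 1, gmps was lower and passed, at -0.41. The gene adssl, an adenylosuccinate synthase of the branch to AMP from the list of purine salvage and breakdown, rose by 0.58, while adss1 (0.36) and adss2 (-0.08) of the same step did not pass (edgeR adjusted p = 0.65 and 0.91). No test compared the branches.

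In pyrimidine synthesis, 2 of 5 genes rose, 1 fell and 2 did not pass, while 16.6% of all genes tested rose and 16.9% fell. With so few genes, 1 fall is near the share of all genes. The gene cad encodes the protein that joins the first enzymes of the pathway in a single chain and is its main point of control. It had 83.3 and 84.9 CPM with vehicle and 157.7 and 170.8 CPM with lipofermata. The replicates of each group were close and the groups were 1.95-fold apart (log2 fold change 0.97, standard error 0.14, edgeR adjusted p = 0.0011). The gene umps, which encodes UMP synthase, rose by 1.098, from 3.83 and 3.76 CPM to 8.79 and 7.45 CPM (standard error 0.26, edgeR adjusted p = 0.013), and did not pass without lipofermata replicate 1 (edgeR adjusted p = 0.12, in a range of 0.0012 to 0.12 over the alternatives).

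Between these enzymes acts dihydroorotate dehydrogenase of the mitochondrial membrane, encoded by dhodh. Its libraries overlapped, with 5.38 and 6.04 CPM with vehicle and 6.996 and 5.37 CPM with lipofermata (log2 fold change 0.12, edgeR adjusted p = 0.78). CTP synthase, which makes CTP from UTP, is encoded by ctps1a and ctps1b. The gene ctps1b fell, from 50.5 and 63.1 CPM to 38.3 and 36.7 CPM (log2 fold change -0.60, standard error 0.15, edgeR adjusted p = 0.018), whereas ctps1a had 49.7 and 49.5 CPM with vehicle and 44.1 and 42.5 CPM with lipofermata and did not pass (log2 fold change -0.20, edgeR adjusted p = 0.32). The call of ctps1b was lost with total-count scaling (-0.20) and without either lipofermata replicate.

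In folate metabolism, 3 of 8 genes rose, 3 fell and 2 did not pass, while 16.6% of all genes tested rose and 16.9% fell. Of the 4 mitochondrial genes, mthfd2, mthfd1l and aldh1l2 rose and shmt2 did not pass. Among these rises, that of mthfd1l is weak evidence, since the gene passed the filter through the lipofermata libraries only. Of the 4 cytosolic genes, shmt1, mthfd1a and aldh1l1 fell and mthfd1b did not pass. The genes that did not pass lay at -0.36 for shmt2 and 0.04 for mthfd1b, each on the side of the other compartment. This grouping was made after the values were seen, so it is a description.

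The mitochondrial gene mthfd2, a methylenetetrahydrofolate dehydrogenase that in mammals is high in embryonic and dividing cells and low in most adult tissues, had 2.33 and 1.47 CPM with vehicle and 8.99 and 8.44 CPM with lipofermata. The groups were well apart (log2 fold change 2.17, standard error 0.31, edgeR adjusted p = 0.0010). The gene mthfd1l, which releases formate from mitochondria, had 12 and 6 counts with vehicle and 46 and 36 counts with lipofermata (log2 fold change 1.85, standard error 0.55, edgeR adjusted p = 0.032). It did not pass without lipofermata replicate 1 (1.75) or replicate 2 (1.96). The gene aldh1l2, a mitochondrial formyl folate dehydrogenase, had 8.65 and 2.45 CPM with vehicle and 11.3 and 13.1 CPM with lipofermata. The vehicle libraries were further apart than those of the other folate genes, and the log2 fold change of 1.09 (standard error 0.41, edgeR adjusted p = 0.078) was 2.32 without vehicle replicate 1. The call was lost when vehicle replicate 2 (0.50) or lipofermata replicate 2 (0.99) was left out.

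Among the cytosolic genes, aldh1l1 (ENSDARG00000077004) encodes the formyl folate dehydrogenase that burns carbon units to carbon dioxide and is a well known liver enzyme. It had 2924 and 3940 CPM with vehicle and 1595 and 2021 CPM with lipofermata. The log2 fold change was -0.93 (standard error 0.20, edgeR adjusted p = 0.0072), and the gene did not pass without lipofermata replicate 1 (edgeR adjusted p = 0.17). Serine hydroxymethyltransferase passes a carbon unit from serine to folate. Its cytosolic form shmt1 had 532 and 708 CPM with vehicle and 341 and 389 CPM with lipofermata (log2 fold change -0.76, standard error 0.18, edgeR adjusted p = 0.011), and was also lost without lipofermata replicate 1 (edgeR adjusted p = 0.17). Its mitochondrial form shmt2 had 97.02 and 141 CPM with vehicle and 84.2 and 102 CPM with lipofermata (log2 fold change -0.36, edgeR adjusted p = 0.20). It passed as a fall without vehicle replicate 1 (-0.60) and with the replicate number as a block (-0.34).

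The largest fall among the 36 tested genes was in mthfd1a, a cytosolic folate enzyme with dehydrogenase and synthetase domains in its mammalian counterpart. It had 9.98 and 15.7 CPM with vehicle and 2.70 and 4.00 CPM with lipofermata, a log2 fold change of -1.93 (standard error 0.30, edgeR adjusted p = 0.0016). Its paralog mthfd1b had 225 and 256 CPM with vehicle and 229 and 265 CPM with lipofermata, and the groups overlapped (log2 fold change 0.04, edgeR adjusted p = 0.88), though it passed with total-count scaling, at 0.43. The paralogs are similar in sequence, and reads shared between them could be assigned to either. The ratio of mthfd1b to mthfd1a counts was 22.5 and 16.3 with vehicle and 84.8 and 66.2 with lipofermata.

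**Figure D3:**
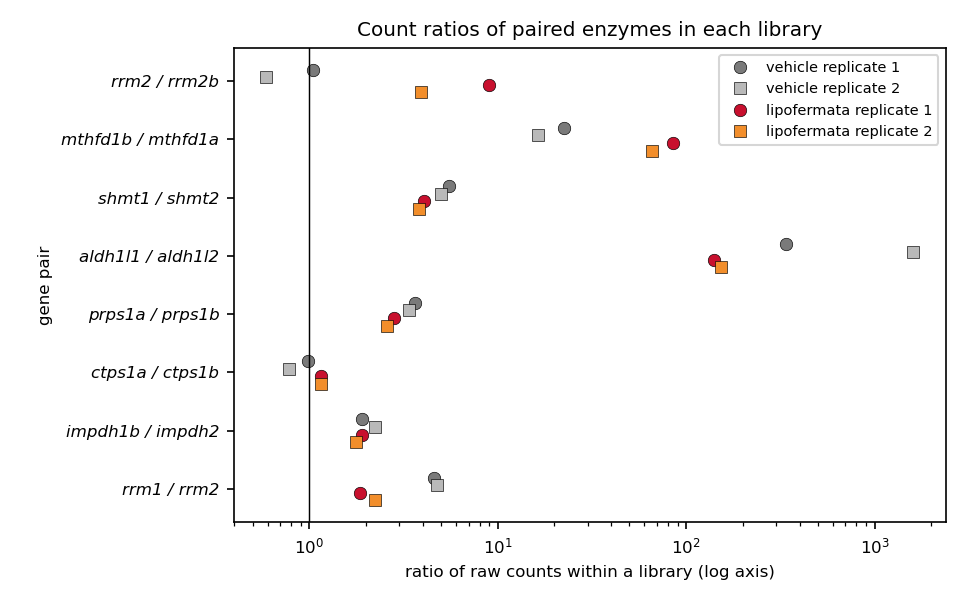
Ratio of raw counts of paired enzymes within each library (log axis), which does not depend on the scaling of libraries (circles, replicate 1; squares, replicate 2; grey, vehicle; red and orange, lipofermata). The ratio of rrm2 to rrm2b moves from 0.591 and 1.05 to 3.93 and 8.94, and that of mthfd1b to mthfd1a from 16.3 and 22.5 to 66.2 and 84.8. Only the row of rrm2 with the most counts is used.

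Within a library these ratios do not depend on the scaling between libraries. The ratio of shmt1 to shmt2 counts was 5.48 and 5.01 with vehicle and 4.05 and 3.83 with lipofermata, and that of aldh1l1 to aldh1l2 was 338 and 1608 with vehicle and 141 and 154 with lipofermata. In both pairs the cytosolic form took a smaller part with lipofermata, and in the second pair the vehicle libraries were far from each other. The ratio of prps1a to prps1b was 3.64 and 3.37 with vehicle and 2.83 and 2.58 with lipofermata, and that of ctps1a to ctps1b 0.985 and 0.784 with vehicle and 1.15 and 1.16 with lipofermata. The ratio of impdh1b to impdh2 differed little, at 1.91 and 2.23 with vehicle and 1.91 and 1.78 with lipofermata. These ratios were not tested, since the smallest p of a two-sided exact permutation over 2 against 2 libraries is 0.333.

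All 3 genes of serine synthesis from glycolysis rose, while 16.6% of all genes tested did. The gene phgdh, whose product starts the branch from phosphoglycerate, had 8.87 and 2.94 CPM with vehicle and 15.9 and 14.0 CPM with lipofermata. The groups did not overlap, although vehicle replicate 1 was well above vehicle replicate 2, as for aldh1l2. The log2 fold change was 1.297 (standard error 0.37, edgeR adjusted p = 0.027), and the gene passed when vehicle replicate 1 (2.35) or vehicle replicate 2 (0.75) was left out. The aminotransferase gene psat1 had 5.21 and 4.08 CPM with vehicle and 10.3 and 8.33 CPM with lipofermata (log2 fold change 0.99, standard error 0.26, edgeR adjusted p = 0.019), and did not pass without lipofermata replicate 1 (edgeR adjusted p = 0.16). The phosphatase gene psph, which releases serine, rose by 0.49, from 18.6 and 16.5 CPM to 25.3 and 24.2 CPM (edgeR adjusted p = 0.043). The call was lost with DESeq2 (0.50) and without lipofermata replicate 1 (0.46) or replicate 2 (0.53).

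Vehicle replicate 1 also stood above vehicle replicate 2 in markers of macrophages. The 17 macrophage markers found summed to 144 and 40.7 CPM in the vehicle libraries and to 52.8 and 57.7 CPM in the lipofermata libraries. Of these, 13 were tested, 4 fell and 9 did not pass, while 16.9% of all genes tested fell. DESeq2 called 1 of them lower, limma voom 2, and total-count scaling 1 lower and 1 higher. The antigen presentation gene cd74a had 16 and 2 counts with vehicle and 0 and 0 with lipofermata, too few to test. The defining marker mpeg1.1 had 9.09 and 2.78 CPM with vehicle and 3.20 and 4.27 CPM with lipofermata. Such a gap was not limited to macrophage markers. In vehicle replicates 1 and 2, top2a had 5.77 and 2.12 CPM, though the median log2 difference of its E2F and replication list was 0.07. Muscle markers summed to 17.6 and 6.94 CPM in these libraries, while erythroid markers went the other way, at 15.2 and 47.4 CPM. The part of macrophages or of other cells in the values of phgdh and aldh1l2 was not tested.

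Other genes of the same pathways, listed by their function, moved in both directions. So did all genes tested, of which 16.6% rose and 16.9% fell. Of 29 tested genes of purine salvage and breakdown, 7 rose and 7 fell, with a median of -0.11. Those with the smallest p among the rises were gmpr2, a GMP reductase that returns GMP to inosine monophosphate (1.32), urad, an enzyme of urate breakdown (1.40), and the nucleotidase nt5c2b (0.67). The salvage transferases hprt1 and aprt, which rebuild nucleotides from free bases, rose by 0.64 and 0.65. The falls with the smallest p were in the AMP deaminase ampd3a (-3.03), the adenosine deaminase ada2a (-1.15) and the ectonucleotidase nt5e (-1.55). The urate oxidase gene uox, a liver enzyme of purine breakdown, fell from 2254 and 2838 CPM to 1219 and 1416 CPM.

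Of 21 tested genes of pyrimidine salvage and breakdown, 4 rose and 5 fell, with a median of -0.02. The kinase cmpk, which phosphorylates UMP and CMP, rose by 1.22, and the nucleoside diphosphate kinase nme6 by 1.22. Another nucleoside diphosphate kinase gene, nme4, fell (-0.51), from 166 and 188 CPM with vehicle to 131 and 117 CPM with lipofermata. The enzymes dpydb, dpys and upb1, which act in this order in the breakdown of uracil and thymine, fell by 0.48, 0.73 and 0.50.

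Of 13 tested genes of folate transport and other folate enzymes, 3 fell and 10 did not pass. None rose, with 0 at an unadjusted p under 0.05 and 0 with DESeq2 and limma voom, but 5 rose with total-count scaling and 1 without either vehicle replicate. The genes that fell were slc25a32a, a mitochondrial folate carrier (-1.31), ftcd, an enzyme of histidine breakdown that loads folate (-0.96), and mthfs, which recycles formyl folate (-0.94). The paralog slc25a32b had 2.16 and 1.39 CPM with vehicle and 3.05 and 3.56 CPM with lipofermata. It did not pass (log2 fold change 0.87, edgeR adjusted p = 0.14). Of 27 tested genes of the methionine cycle, glycine cleavage and related steps, 9 rose and 7 fell. The genes mat2ab, a synthetase of S-adenosylmethionine, and srm, which makes spermidine, rose by 1.15 and 1.29. In contrast gamt, the last step of creatine synthesis, fell by 1.55 and ahcy, which removes S-adenosylhomocysteine, by 0.86.

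The ATF4 and MYC lists held calls in both directions, as did all genes tested, of which 16.6% rose and 16.9% fell. Of 27 tested ATF4 and stress response targets, 6 rose, 4 fell and 17 did not pass, with a median of 0.03, near that of all genes. The asparagine synthetase gene asns and the transfer RNA synthetase gene sars1 rose by 0.81 and 0.69, whereas the stress factor ddit3 and the amino acid transporter subunit slc3a2a fell by 0.71 and 0.86. Of 12 tested genes of the MYC list, 1 rose and 5 fell, with a median of -0.47. The gene myca rose by 0.40, and mycb fell by 1.48, from 36.6 and 124 CPM to 28.1 and 29.1 CPM, with the vehicle libraries far apart. The other falls were in mycn (-1.56) and in mxi1 (-0.70), mntb (-0.80) and mxd4 (-1.02), of which the last 3 are not MYC genes. As the list mixes MYC genes with others, its counts and median give no direction of MYC activity.

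These counts were lower when a lipofermata library was left out, as were those over all genes. In such a fit the spread within groups is taken from the vehicle libraries alone. Without lipofermata replicate 1, the rises and falls were 5 and 3 in purine salvage, 1 and 0 in pyrimidine salvage, 4 and 1 in the methionine cycle, 3 and 3 in the ATF4 list and 0 and 2 among MYC genes. Without lipofermata replicate 2 they were 4 and 5, 1 and 2, 3 and 1, 3 and 0, and 0 and 4 in the same order.

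Scaling by total counts moved these lists toward rises, as it did all genes, of which 34.1% rose and 7.92% fell in that scaling. The rises and falls were then 11 and 5 in purine salvage, 13 and 2 in the methionine cycle, and 1 and 1 among MYC genes. None fell among 12 calls of the ATF4 list and 7 calls of pyrimidine salvage, whereas with TMM 4 and 5 genes fell in edgeR, the same numbers as at an unadjusted p under 0.05, 3 and 5 with DESeq2 and 4 and 5 with limma voom.

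**Figure D4:**
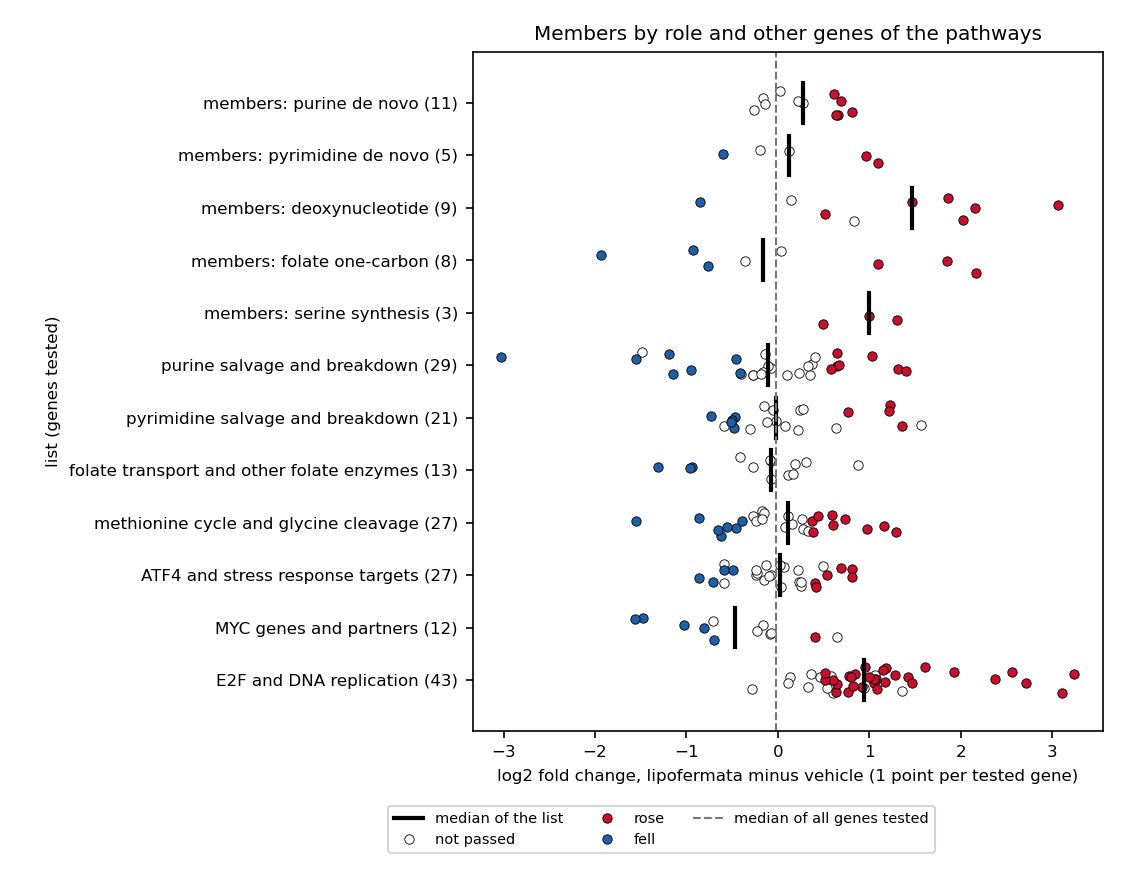
Log2 fold change of each tested gene, lipofermata minus vehicle, for the 37 genes by role (top) and for other lists (red, rose; blue, fell; white, did not pass; black bar, median of the list; dashed line, median of all genes). The medians lie at 1.46 for deoxynucleotide supply and 0.95 for E2F and DNA replication, and near the line for the salvage and breakdown lists.

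Markers of several other cell types fell in the same livers, and those of others did not. For comparison, 16.6% of all genes tested rose and 16.9% fell. Among stellate and fibroblast markers 9 of 11 fell, and among 7 epidermis markers 5 fell and 1 rose. Of 10 biliary markers, 5 fell and 2 rose. Neutrophil markers held 2 falls and 1 rise among 8, muscle markers 3 falls among 5 and neuron markers 2 falls among 5. In turn 1 of 14 pancreas markers and 1 of 8 erythroid markers rose and the others did not pass. Calls of 1 gene in such short lists give no direction for a cell type. The pancreas marker that rose was the insulin gene ins, from 12 and 0 counts with vehicle to 64 and 28 with lipofermata. Of 7 intestine markers, 1 rose and 1 fell. Of 20 tested endothelial markers, 17 fell and 1 rose, with sums of 918 and 1035 CPM with vehicle and 280 and 296 CPM with lipofermata, and no marker of this list was at 0 in all libraries. Of 23 hepatocyte markers, 11 fell, 1 rose and 11 did not pass, with a median of -0.38, while with total-count scaling 9 fell and 3 rose. The part of cell composition in the falls of mthfd1a, aldh1l1, shmt1, ctps1b and dut was not tested.

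These directions depend on the scaling. Scaled by total counts alone, the median of all genes shifted by 0.39, 34.1% of all genes rose and 7.92% fell, and 23 of the 36 genes rose and 3 fell. In that scaling, 81.2% of all calls were rises in place of 49.5%, and 88.5% of the calls among these genes in place of 79.2%. Among the deoxynucleotide genes 7 rose and 0 fell with total counts, against 1 that fell with TMM (1 also with DESeq2, with limma voom and at an unadjusted p under 0.05). In pyrimidine synthesis 2 rose and 0 fell, against 1 that fell in each of those fits.

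With the upper quartile 18 rose against 15.2% of all genes, with a filter at 0.5 CPM in 2 libraries 19 rose against 16.2%, and without vehicle replicate 1 19 rose and 7 fell against 20.1% and 18.7%. Leaving out a lipofermata library removed calls. Without lipofermata replicate 1, 11 of these genes rose and 2 fell, against 7.24% and 8.24% of all genes. Without lipofermata replicate 2, 12 rose and 4 fell, against 8.5% and 9.3%. The genes that rose with all libraries and with any library left out were adsl, atic, cad, rrm1, rrm2, tyms, tk1, dck, mthfd2 and phgdh, and those that fell were dut and mthfd1a.

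**Figure D5:**
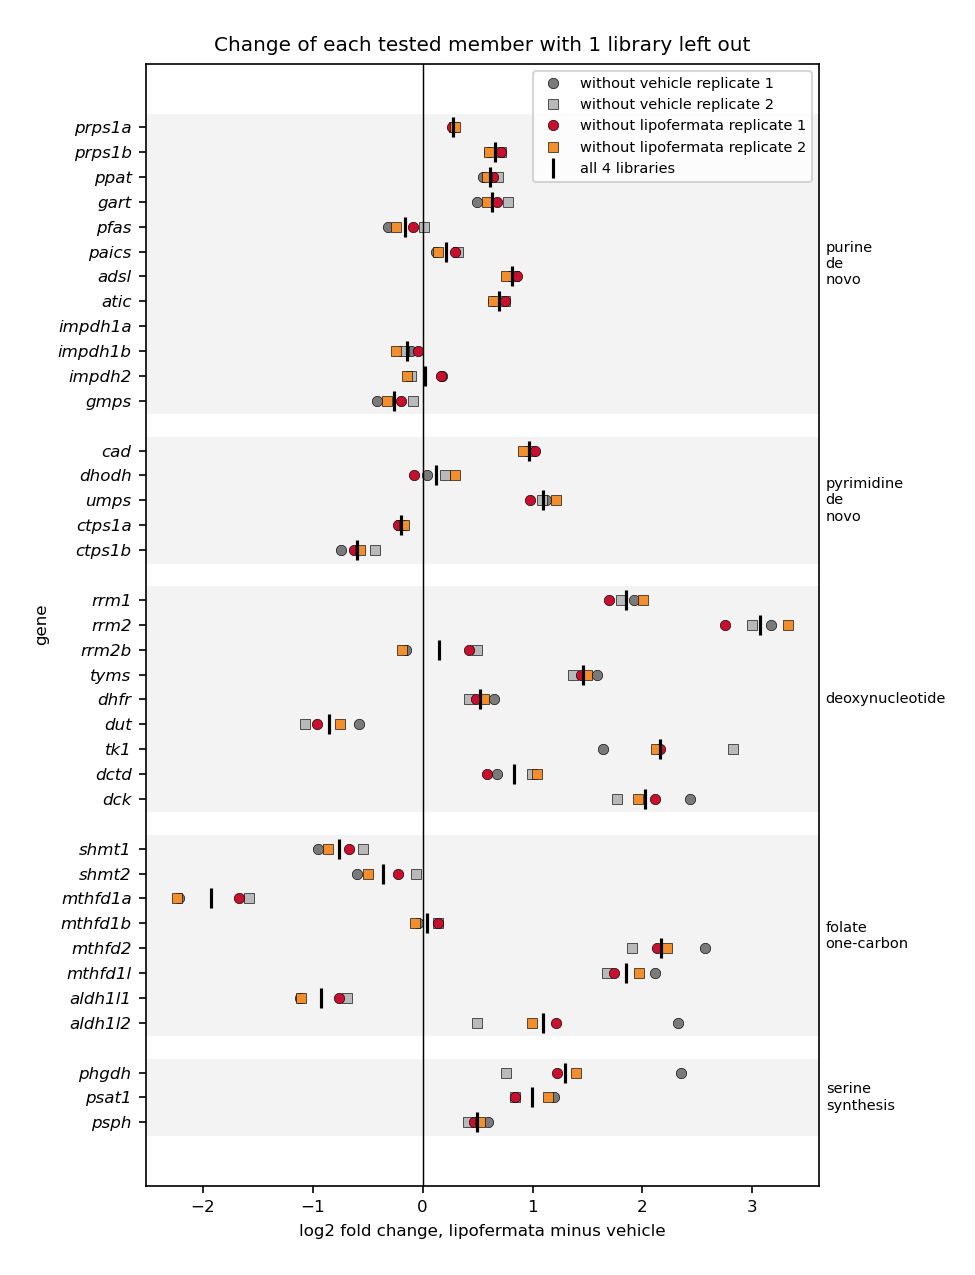
Log2 fold change of each tested gene, lipofermata minus vehicle, with all 4 libraries (black bar) and with each library left out in turn (points). For aldh1l2 the value ranges from 0.50 to 2.32 and for phgdh from 0.75 to 2.35 depending on the vehicle library left out, whereas for cad and adsl the points lie close together.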

How the data were processed

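The deposited file holds raw counts per gene, with no normalization. The submitters' processing notes name HISAT2, featureCounts and the build GRCz11. For versions, annotation release and strand, the setting is not given in the sources used here. Of the values from 1 to 49, 74.1% to 75.0% were even. Whether both mates of a pair were counted is not given, so counting error may be larger than the counts imply. The 28 rows without a gene name, which carry an Ensembl ID and at most 0.0441% of the counts, were kept under that ID.

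The software was edgeR 4.0.16 on R 4.3.3, with DESeq2 1.42.0 and limma 3.58.1 for alternatives. Figures were drawn by matplotlib 3.10.9 under Python 3.11.15. The filter was filterByExpr (minimum count 10), the scaling TMM (factors 0.817 to 1.16), and the model held treatment alone in edgeR's quasi-likelihood F test. Adjusted p-values follow Benjamini and Hochberg across every tested gene. The threshold of 0.1 is the false discovery rate that the study's methods give. A standard error is the size of the log2 fold change divided by the square root of F. The code was tested on simulated data.

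A name stands for the Ensembl ID with the most counts, which left 1 further row named rrm2 apart. Of the 37 names, 36 were found in the RefSeq table of GRCz12tu, which was used only for overlaps between genes. The genes and lists were chosen with earlier results of these data known. All 37 genes could be named, and of other lists up to 3 genes in each direction by smallest p. The genes uox, hprt1, aprt, adssl, adss1, adss2, dpydb, fabp10a, cd74a, mpeg1.1, slc4a4b and fn1b outside this rule were named after their values were seen. So were mycn, mxd4 and slc25a32b. Alternatives were other scalings, filters and tests, summed rows of a name, a threshold of 0.05, a replicate block and each library left out. Depths of 14997821 to 19368695 counts make 1 count worth 0.050 to 0.0817 CPM.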

Additional observations from a re-analysis of the deposited data

How the results depend on the processing

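Of the 14 alternatives to each result, some changed no call among the 36 genes. These were DESeq2 size factors, the filter at 0.5 CPM in 2 libraries, limma voom and summed rows of a name. With total-count scaling 5092 of all genes rose and 1182 fell, 3 of the 36 genes fell, and 0 in pyrimidine synthesis and 0 in deoxynucleotide supply. In that scaling pfas (0.23), impdh1b (0.25), gmps (0.14), ctps1a (0.19) and shmt2 (0.046) changed sign without a call in either fit. So did impdh2 (-0.025) and mthfd1b (-0.005) with the upper quartile and impdh2 with limma voom (-0.00015). With each library left out, other uncalled values crossed 0 and ranged from -0.313 to 0.009 for pfas, -0.14 to 0.177 for impdh2, -0.083 to 0.297 for dhodh, -0.19 to 0.498 for rrm2b and -0.068 to 0.142 for mthfd1b. The cause was not tested.

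With each library left out in turn, the rises numbered 1128 to 3115 over all genes, 11 to 19 over the 36 genes, 2 to 5 in purine, 1 to 2 in pyrimidine, 1 to 3 in folate and 1 to 3 in serine synthesis, and the falls 1284 to 2898 over all genes, 2 to 7 over the 36 genes, 0 to 1 in purine, 0 to 1 in pyrimidine and 1 to 4 in folate metabolism. In these fits the lone library of a group is assumed to vary like the other group.

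The replicate numbers gave no sign of pairing, since deviations of libraries with the same number had a correlation of 0.03. This single value cannot show that the samples were unpaired. With the replicate block 2756 of all genes rose and 2724 fell, and 19 and 6 of the 36 genes, where shmt2 was the added fall. Depth limits impdh1a, with at most 4 counts in a library, and the genes tk1, dck, mthfd1l and mthfd2, with 6 to 42 counts in a vehicle library. In vehicle replicate 2, rrm2 had 26 counts, aldh1l2 30, dctd 34 and phgdh 36, so depth limits these as well. The gene rrm2b had 41 and 44 counts with vehicle. Ratios of paired enzymes per coding length were not run, since no lengths were used here.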
